A study of Mus musculus with 15 samples.

Results

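The transient outward potassium current of heart muscle was followed here through 4 genes taken by name from the table of gene expression, Kcnip2, Kcnd2, Kcnd3 and Kcna4, out of 54532 genes listed. The current flows out of the muscle cell just after the upstroke of the action potential and shapes early repolarization. In mouse ventricle its fast component is carried by channels whose pores are built from the proteins of Kcnd2 and Kcnd3, and the accessory protein of Kcnip2 binds these pores, brings them to the cell surface and slows their inactivation. The slow component is carried by the pore protein of Kcna4, which recovers slowly from inactivation. In mice that lack Kcnip2 the fast component is lost from the ventricle.

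Poly-A RNA of whole mouse hearts was sequenced in 15 libraries, 3 in each of 5 groups, described in the labels as independent biological replicates. All pups received adeno-associated virus of serotype 9 under the skin on day 1 after birth, with a transgene behind cTnT (the cardiac troponin T promoter), and hearts were taken 12 to 14 days later. Nat10 flox/flox mice given AAV9-cTnT-GFP form the group ff_GFP, and Nat10-CKO mice, which carry a conditional knockout, were given AAV9-cTnT-GFP (CKO_GFP), AAV9-cTnT-NAT10 (CKO_NAT10), AAV9-cTnT-NAT10G641E (CKO_G641E) or AAV9-cTnT-NAT10K209A (CKO_K209A). NAT10 is an enzyme that acetylates cytidine in RNA, and the title of the series refers to both its acetyltransferase activity and its binding of RNA, without tying a substitution to either. The driver of the knockout and the cells in which it acts are not given in the sources used here.

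Reads in genes numbered 13218352 to 15912700 per library. Nat10 itself measured 4.09 ± 0.207 FPKM in ff_GFP and 3.48 ± 0.0498 in CKO_GFP (SD, n = 3). It measured 2.62 ± 0.497 in CKO_NAT10, 2.36 ± 0.199 in CKO_G641E and 3.54 ± 0.291 in CKO_K209A. The first 2 of these groups were thus below CKO_GFP. Neither the extent of the knockout nor expression of the transgenes can be judged from these values. FPKM counts fragments per unit of gene length and of library size, so levels of different genes can be set side by side. The heart muscle markers Tnnt2, Actn2, Myh6, Ttn, Ryr2, Tnni3, Mybpc3 and Pln were present in every library, and their summed level was 9450 to 11155 FPKM in ff_GFP, 8150 to 9404 in CKO_G641E, 7750 to 8777 in CKO_NAT10, 4746 to 5624 in CKO_GFP and 3732 to 4213 in CKO_K209A. CKO_GFP replicate 1 stood apart from the other libraries of its group on the second principal component (-43.8 against 3.43 and 9.07), and the values it moves most are also given without it, an alternative added after the values were seen for folds by reads and ratios between genes.

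Kcnip2 (ENSMUSG00000025221) lies on chromosome 19 from 45791839 to 45816061 on the minus strand, Kcnd2 (ENSMUSG00000060882) on chromosome 6 from 21215503 to 21729805, Kcnd3 (ENSMUSG00000040896) on chromosome 3 from 105452330 to 105674002 and Kcna4 (ENSMUSG00000042604) on chromosome 2 from 107290639 to 107298502, the last 3 on the plus strand (GRCm38). GENCODE M21, which gives each gene the same coordinates, lists 10 transcripts for Kcnip2, 1 for Kcnd2, 5 for Kcnd3 and 2 for Kcna4, and the values here sum over them. Only Kcnd3 shares exonic bases with another gene, 165 with the antisense gene Kcnd3os. The library preparation did not mark strand, so reads of that stretch cannot be assigned to either gene, and Kcnd3os itself held 14 reads in all of ff_GFP. The RefSeq promoter windows on GRCm38.p6 run from 250 bases before to 50 after the RefSeq start. For Kcnd2, Kcnd3 and Kcna4 the whole window lies before the gene start given above. Windows are printed for Kcnip2 and Kcnd2, both called lower in CKO_GFP than in ff_GFP in the results that follow. That of Kcna4, which was not called there with all libraries kept, is printed too. Capitals mark GC boxes (GGGCGG on either strand) and CACCC boxes (CACCC on either strand), elements bound by factors of the Sp and Klf families.
Kcnip2 (chr19:45816014-45816313, minus strand): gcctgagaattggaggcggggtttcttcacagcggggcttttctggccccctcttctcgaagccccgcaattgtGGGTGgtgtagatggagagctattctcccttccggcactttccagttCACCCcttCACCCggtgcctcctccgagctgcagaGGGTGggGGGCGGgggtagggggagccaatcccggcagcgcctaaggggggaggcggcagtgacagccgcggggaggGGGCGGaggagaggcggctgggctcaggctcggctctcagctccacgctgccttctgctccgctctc
Kcnd2 (chr6:21215096-21215395, plus strand): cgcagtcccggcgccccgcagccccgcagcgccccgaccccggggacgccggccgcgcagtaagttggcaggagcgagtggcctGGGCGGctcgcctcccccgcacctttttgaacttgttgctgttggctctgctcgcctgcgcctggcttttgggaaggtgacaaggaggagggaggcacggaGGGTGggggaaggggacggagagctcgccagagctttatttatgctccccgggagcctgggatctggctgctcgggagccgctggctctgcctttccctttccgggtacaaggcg
Kcna4 (chr2:107290339-107290638, plus strand): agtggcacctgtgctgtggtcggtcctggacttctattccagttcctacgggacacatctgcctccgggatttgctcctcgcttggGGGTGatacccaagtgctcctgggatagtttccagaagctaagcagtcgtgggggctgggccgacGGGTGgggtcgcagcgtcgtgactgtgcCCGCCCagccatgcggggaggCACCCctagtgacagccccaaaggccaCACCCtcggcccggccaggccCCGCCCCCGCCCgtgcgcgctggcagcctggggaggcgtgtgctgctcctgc
The Kcnip2 window held 2 GC boxes and 4 CACCC boxes, the Kcnd2 window 1 of each, and the Kcna4 window 3 and 4, with no base shared between the matches of the 2 motifs. The Kcnd3 window had no GC box and 3 CACCC boxes. Of 32851 mouse promoter windows of this length, 35.7% held a GC box and 57.5% a CACCC box. The E-box CACGTG, the NFAT core GGAAAA and the GATA core AGATAA, present in 7.15%, 23.4% and 11.2% of windows, were matched on neither strand in the 4 windows. All 4 windows held more CG dinucleotides than the median of 7 over all windows, with 18 in Kcnip2, 26 in Kcnd2, 25 in Kcnd3 and 20 in Kcna4. Of all windows 70.3%, 83.1%, 81.6% and 73.5% held fewer, in that order.

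Kcnip2, Kcnd2 and Kcnd3 were low in knockout hearts and Kcna4 was not called, and the pattern over the 5 groups differed from gene to gene. In the floxed controls Kcnip2 was the most abundant of the 4 and Kcnd3 the least. Kcnip2 with wild-type NAT10 overlapped the controls, whereas Kcnd2 lay between knockout and control with either wild-type NAT10 or G641E. Neither Kcnd2 difference from the controls was called (limma adjusted p = 0.101 and 0.333), so this contrast between the genes is a description. In hearts given K209A, Kcnip2 and Kcnd2 were both lower in FPKM in every library than in any knockout heart given GFP. For Kcnip2 this lack of overlap rests on the deposited scaling. For Kcnd2 it rests on 1, 2 and 1 reads against 19, 4 and 3. The share of all genes without overlap between these groups is not given here. The difference was not called for Kcnd2 and called for Kcnip2 in some fits only.

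**Figure D1:**
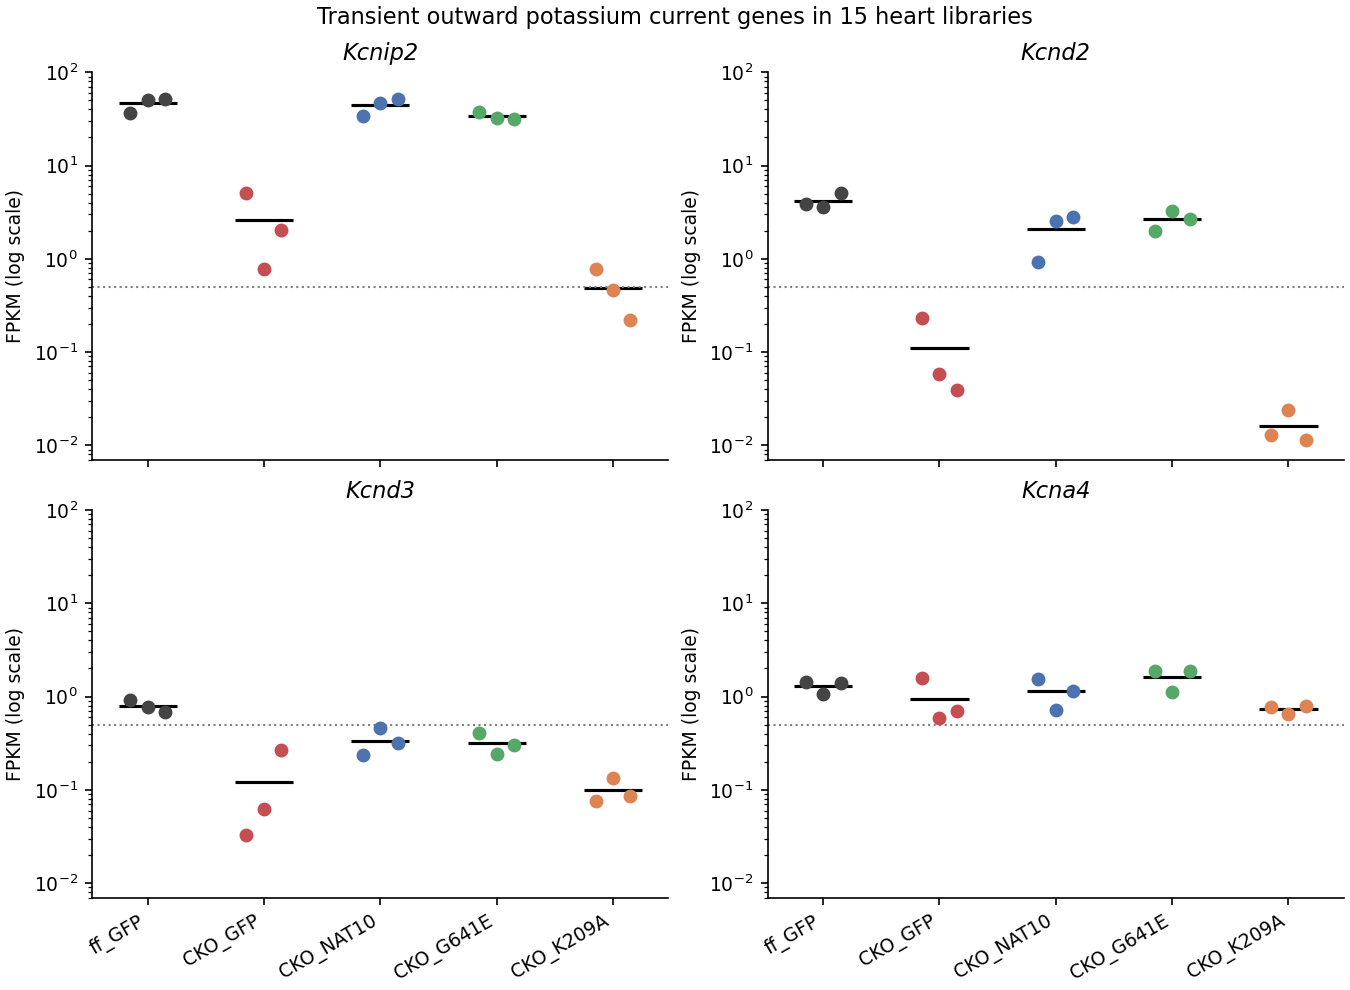
FPKM of each gene on a log axis in the 3 libraries of each group (points, replicates 1 to 3 from left to right), with the group mean as a bar and the 0.5 FPKM filter as a dotted line. Kcnip2 falls from 36.8 to 52.3 FPKM in ff_GFP to 0.773 to 5.05 in CKO_GFP, and the Kcnd3 points lie above the dotted line in ff_GFP alone.

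Kcnip2, the accessory subunit gene, measured 36.8, 49.9 and 52.3 FPKM in ff_GFP replicates 1 to 3 and 5.05, 0.773 and 2.02 FPKM in CKO_GFP. The highest knockout library, replicate 1, was still far below the lowest control. On the log2(FPKM + 0.5) scale the difference was -4.15 (SE 0.39, limma adjusted p = 3.53e-06), and only 4 of the 15321 genes tested had a lower one. With summed reads of 420 against 6640, the level was 17.0-fold lower (95% exact binomial interval 15.4 to 18.8, counting error only). CKO_GFP replicate 1 held 279 of the 420 reads, and without it the fold was 32.4 (interval 27.4 to 38.5) and the log2 difference -4.69. With wild-type NAT10 the libraries measured 33.6, 47.1 and 52.1 FPKM, of which the last 2 lay within the range of the controls and replicate 1 below it. The rise over CKO_GFP was 4.08 (SE 0.39, adjusted p = 1.31e-05), the highest of all genes tested, and the difference from ff_GFP was -0.07 (95% interval -0.92 to 0.78, adjusted p = 0.963). With G641E the libraries measured 37.3, 32.4 and 31.9 FPKM, a smaller spread than in ff_GFP or CKO_NAT10. Their rise over CKO_GFP was 3.71 (SE 0.39, adjusted p = 2.19e-05), again the highest of all genes. The G641E hearts held 73.1% of the control mean and the wild-type hearts 95.6%, but the log2 difference between these groups, -0.36, had an interval of -1.21 to 0.49 (adjusted p = 0.968). Against ff_GFP the G641E hearts differed by -0.43 (interval -1.29 to 0.42, adjusted p = 0.675).

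In CKO_K209A, Kcnip2 measured 0.769, 0.462 and 0.220 FPKM, from 13 to 40 reads per library. Every FPKM value was under the lowest CKO_GFP library, replicate 2, by a small margin for CKO_K209A replicate 1. That margin rests on the deposited scaling. CKO_K209A replicate 1 held 40 reads of Kcnip2 among 13827164 reads in genes, and CKO_GFP replicate 2 held 36 among 14048306. The log2 difference from CKO_GFP was -1.45 (SE 0.39, limma adjusted p = 0.0414). This call held in 5 of 16 alternatives only and depended on several single libraries, since it ended without CKO_GFP replicate 1 (-0.90, adjusted p = 0.0705), without CKO_GFP replicate 3 (-1.47, adjusted p = 0.0816), and without CKO_K209A replicate 1 (-1.65), 2 (-1.45) or 3 (-1.24). By limma voom on the recovered reads the difference was -2.29 (adjusted p = 0.0809). Against CKO_NAT10 the difference was -5.52 (SE 0.39, adjusted p = 3.70e-07), against CKO_G641E -5.16 (adjusted p = 5.57e-07) and against ff_GFP -5.59 (adjusted p = 1.37e-07). These 3 calls held in every alternative tried. By summed reads, 79 against 6640, Kcnip2 in CKO_K209A was 98.2-fold below ff_GFP (interval 78.6 to 124).

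Kcnd2, whose protein forms the pore of the fast channel in mouse ventricle, measured 3.91, 3.57 and 5.04 FPKM in ff_GFP. In CKO_GFP it measured 0.232, 0.0579 and 0.0389 FPKM, from 19, 4 and 3 reads. The knockout libraries rest on few reads, but all lay more than 10-fold below every control. The log2 difference of -2.94 (SE 0.27, limma adjusted p = 2.82e-06) understates the change of so low a gene, because 0.5 FPKM was added to each value. Summed reads of 26 against 889 gave a level 36.7-fold lower (interval 24.9 to 56.4). Of the 26 reads 19 came from CKO_GFP replicate 1, and without it the level was 87.3-fold lower (interval 42.2 to 218). Wild-type NAT10 hearts measured 0.931, 2.56 and 2.79 FPKM and G641E hearts 1.99, 3.26 and 2.67. Each of these libraries lay above all knockout hearts given GFP and below all controls. Against CKO_GFP the rise was 2.01 with wild-type NAT10 (SE 0.27, adjusted p = 0.000141) and 2.36 with G641E (SE 0.27, adjusted p = 4.07e-05). Against ff_GFP the differences were -0.93 (interval -1.52 to -0.34, adjusted p = 0.101) and -0.58 (interval -1.17 to 0.00, adjusted p = 0.333), neither called. The mean was 50.2% of the control mean with wild-type NAT10 and 63.2% with G641E, and the 2 groups overlapped (log2 0.35, interval -0.24 to 0.93, adjusted p = 0.928). K209A hearts measured 0.0130, 0.0240 and 0.0114 FPKM, from 1, 2 and 1 reads. Their log2 difference from CKO_NAT10 was -2.24 (SE 0.27, adjusted p = 2.70e-05) and from CKO_G641E -2.58 (adjusted p = 7.57e-06). From CKO_GFP the difference was -0.23 (interval -0.81 to 0.36, adjusted p = 0.66), at a level where the added 0.5 FPKM outweighs both values. By reads, 4 against 26, the ratio was 7.08-fold (interval 2.46 to 27.9), which covers counting error and not the spread between hearts. Without CKO_GFP replicate 1 it was 2.97-fold (interval 0.756 to 13.9), so a difference was then not detectable at this depth.

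Kcnd3, the other pore gene of the fast channel, was low throughout. Its 3 control libraries held 0.922, 0.763 and 0.675 FPKM, beside 0.0328, 0.0623 and 0.265 FPKM in CKO_GFP and 0.0766, 0.135 and 0.0857 in CKO_K209A. Wild-type NAT10 hearts measured 0.236, 0.461 and 0.314 FPKM and G641E hearts 0.406, 0.243 and 0.304. All controls were above all other libraries. Kcnd3 passed the filter of 0.5 FPKM in 3 libraries through ff_GFP alone, the group where it was highest, so it had to differ there and its differences from ff_GFP are a description: -1.07 in CKO_GFP (SE 0.19), -1.10 in CKO_K209A (SE 0.19), -0.62 in CKO_NAT10 and -0.65 in CKO_G641E. Among the knockout groups, which the filter did not favour, the rise over CKO_GFP was 0.44 with wild-type NAT10 (interval 0.04 to 0.84, limma adjusted p = 0.0877) and 0.41 with G641E (interval 0.01 to 0.81, adjusted p = 0.109). CKO_GFP replicate 3 held 38 of the 51 reads of its group and overlapped both. Without it the rises were 0.60 (adjusted p = 0.032) and 0.57 (adjusted p = 0.0395), and by limma voom on reads they were 1.94 (adjusted p = 0.0128) and 1.87 (adjusted p = 0.0152). Group means were 42.8% and 40.3% of the control mean with wild-type NAT10 and G641E.

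Kcna4, the pore gene of the slow component, varied least between groups. It measured 1.44, 1.07 and 1.40 FPKM in ff_GFP and 1.56, 0.587 and 0.692 in CKO_GFP. Replicate 1 of the knockout was above every control and the other knockout libraries below them all. The log2 difference was -0.37 (interval -0.91 to 0.17, limma adjusted p = 0.265), and without CKO_GFP replicate 1 it was -0.66 and called (adjusted p = 0.0302). CKO_NAT10 measured 1.55, 0.711 and 1.15 FPKM, CKO_G641E 1.88, 1.12 and 1.89, and CKO_K209A 0.774, 0.652 and 0.790. The K209A libraries lay below all of ff_GFP and of CKO_G641E, and overlapped CKO_GFP and CKO_NAT10. One comparison passed the test, K209A against G641E, at -0.76 (SE 0.25, adjusted p = 0.0266). That call held in 10 of 16 alternatives and was lost without CKO_G641E replicate 1 (-0.67), CKO_G641E replicate 3 (-0.67), CKO_K209A replicate 1 (-0.78) or CKO_K209A replicate 2 (-0.71). G641E against CKO_GFP differed by 0.60 (interval 0.06 to 1.14, adjusted p = 0.0875), and by 0.88 without CKO_GFP replicate 1 (adjusted p = 0.0079).

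Placed in order, the Kcnip2 means ran ff_GFP (46.3 ± 8.35 FPKM), CKO_NAT10 (44.3 ± 9.56), CKO_G641E (33.8 ± 2.97), CKO_GFP (2.62 ± 2.20) and CKO_K209A (0.484 ± 0.275; SD, n = 3). Among the first 3 no neighbours passed the limma test, while CKO_G641E and CKO_GFP did. CKO_GFP and CKO_K209A passed it too (adjusted p = 0.0414), though that call held in 5 of 16 alternatives only. The order for Kcnd2 was ff_GFP (4.17 ± 0.769), CKO_G641E (2.64 ± 0.638), CKO_NAT10 (2.09 ± 1.01), CKO_GFP (0.110 ± 0.107) and CKO_K209A (0.0161 ± 0.00687), and of its neighbours CKO_NAT10 and CKO_GFP alone passed the test. No neighbours passed it for Kcna4, which ran from CKO_G641E (1.63 ± 0.438) and ff_GFP (1.30 ± 0.204) through CKO_NAT10 (1.14 ± 0.417) and CKO_GFP (0.947 ± 0.536) to CKO_K209A (0.739 ± 0.0751).

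**Figure D2:**
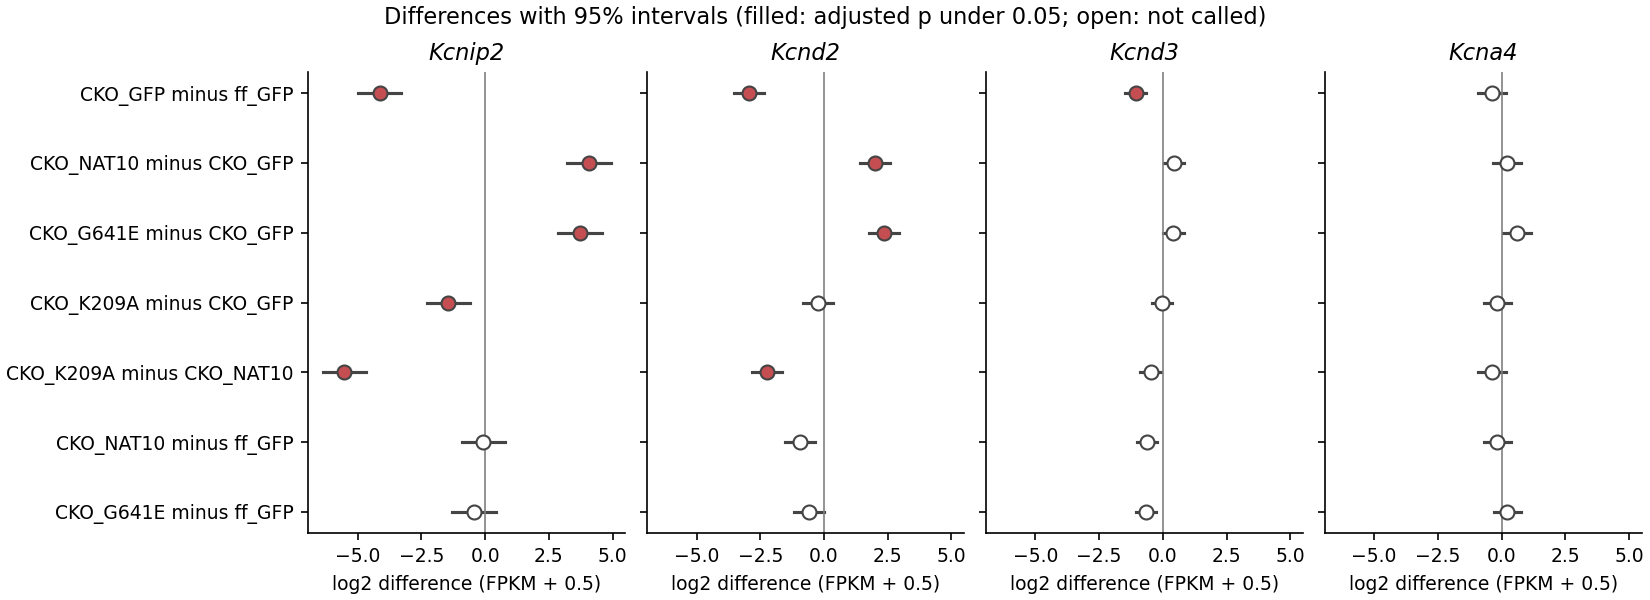
Log2 differences of FPKM + 0.5 (points) with 95% intervals (lines) from limma for the 4 genes in 7 comparisons, filled where the adjusted p was under 0.05. Kcnip2 and Kcnd2 are filled for CKO_GFP minus ff_GFP (-4.15 and -2.94) and, in the other direction, for both CKO_NAT10 and CKO_G641E minus CKO_GFP; no Kcna4 point is filled here.

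Counted over the 4 genes with limma, 3 fell in CKO_GFP against ff_GFP, where 20.8% of all tested genes were called lower and 19.8% higher. Of these 3, Kcnd3 had to differ by the filter, and without CKO_GFP replicate 1 the count was 4. Kcnip2 and Kcnd2 rose with wild-type NAT10 against CKO_GFP, where 15.1% of genes rose, and with G641E, where 15.4% did. By limma voom Kcnd3 rose as well, for a count of 3 in each. K209A against CKO_GFP gave 1 lower call, Kcnip2, beside 5.76% of genes, and voom gave 0. Kcnip2 and Kcnd2 were lower in K209A than in wild-type NAT10 hearts (21.2% of genes lower) and, with Kcna4, than in G641E hearts (21.2%). Against ff_GFP, K209A hearts had 3 genes lower, Kcnd3 among them, beside 24.5% of genes. None of the 4 was called between G641E and wild-type NAT10, where 0.0522% of genes were called in either direction, and 0 reached an unadjusted p under 0.05 or were called by voom. None was called for wild-type NAT10 against ff_GFP (2.47% of genes called) or G641E against ff_GFP (1.79%). At an unadjusted p under 0.05 there were 2 in the former (Kcnd2 and Kcnd3) and 1 in the latter (Kcnd3), and voom called 0 in both. Kcnd3 had to differ by the filter in every comparison with ff_GFP, so its part in these counts is a description. The share of all genes at that unadjusted threshold is not given here. These comparisons share the ff_GFP, CKO_GFP or NAT10 libraries, so their counts are not independent. The 4 genes were chosen with earlier results of these data known, so the counts are a description. The share of genes called lower depended on the scaling between libraries. Without it the median of all genes in CKO_GFP against ff_GFP was 0.12 on the log2 scale and the calls were 2271 lower and 4185 higher, beside 3180 and 3032 with the deposited scaling. For K209A the calls without it were 480 lower and 977 higher against CKO_GFP (882 and 333 with it, 559 and 547 after quantile normalization), 2445 and 4283 against wild-type NAT10 (3252 and 3111), 2365 and 4513 against G641E (3252 and 2998) and 2504 and 5623 against ff_GFP (3760 and 3547), with medians of 0.11, 0.13 and 0.21 in the last 3. For wild-type NAT10 against ff_GFP they were 83 lower and 202 higher (257 and 121), for G641E against ff_GFP 81 and 153 (178 and 96), and for G641E against wild-type NAT10 3 and 1 (3 and 5). The calls of Kcnip2, Kcnd2 and Kcnd3 were the same without it in all 10 comparisons, with -4.00 for Kcnip2 and -2.83 for Kcnd2 in CKO_GFP against ff_GFP. The Kcna4 call of K209A against G641E was lost without it (-0.66, adjusted p = 0.058), and the uncalled Kcnip2 difference of wild-type NAT10 from ff_GFP turned to 0.0522.

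The make-up of the pore transcripts changed along with their sum. In ff_GFP, Kcna4 made up 23.0%, 19.8% and 19.7% of the summed FPKM of Kcnd2, Kcnd3 and Kcna4. In CKO_GFP it made up 85.5%, 83.0% and 69.5%, and in CKO_K209A 89.6%, 80.4% and 89.0%. The remaining transcripts of CKO_GFP and CKO_K209A were thus mostly those of the slow component, at a total of 1.18 ± 0.582 and 0.854 ± 0.0383 FPKM against 6.26 ± 0.857 in ff_GFP. With wild-type NAT10 the Kcna4 share was 57.0%, 19.1% and 27.1%, where replicate 1 stood above the others, and with G641E 44.0%, 24.3% and 38.8%. The log2 ratio of Kcna4 to Kcnd2 plus Kcnd3 was 3.82 higher in CKO_GFP than in ff_GFP (SE 0.41) and 4.43 higher in CKO_K209A (SE 0.32), without overlap. With 3 libraries against 3 the exact two-sided permutation test cannot give less than 0.1, which these reached, and over the 30 ratio tests the adjusted p was 0.2.

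**Figure D3:**
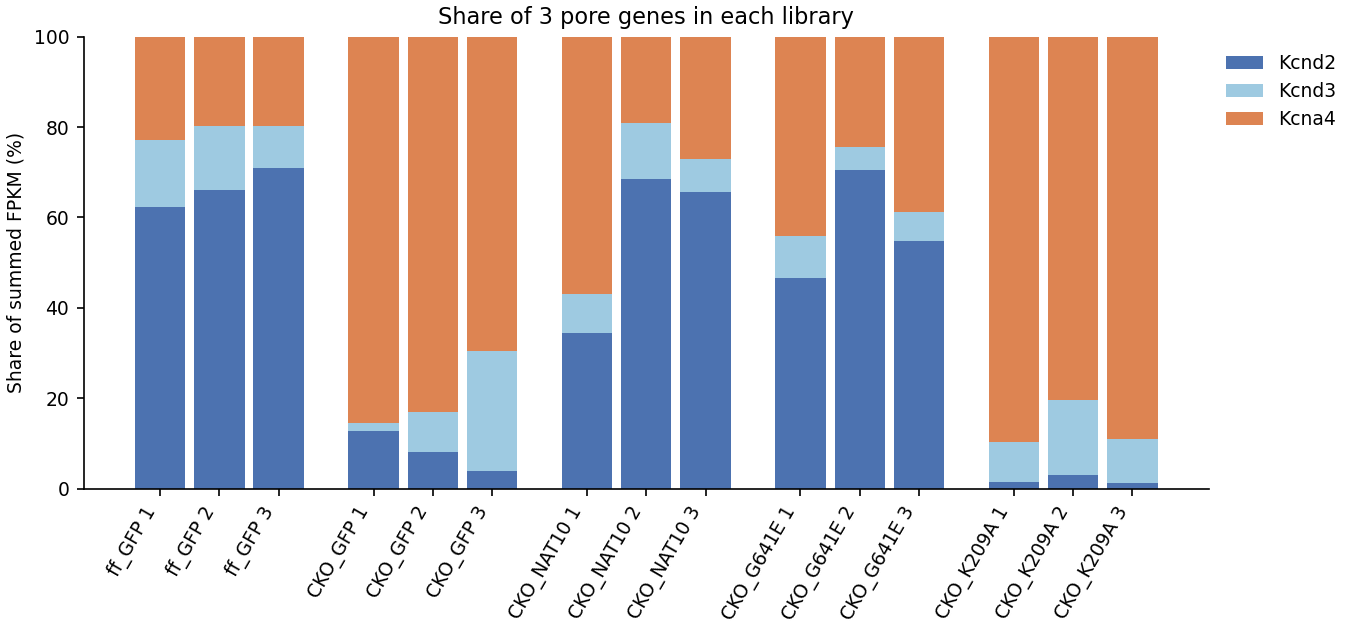
Share of Kcnd2, Kcnd3 and Kcna4 in their summed FPKM (bars, %) in each of the 15 libraries, by group and replicate. The Kcna4 part is 19.7% to 23.0% in ff_GFP, 69.5% or more in CKO_GFP and CKO_K209A, and 19.1% to 57.0% in CKO_NAT10 and CKO_G641E.

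The level of Kcnip2 relative to the pores it binds gave no clear direction between knockout and control. The log2 ratio of Kcnip2 to Kcnd2 plus Kcnd3 was 3.21 ± 0.300 in ff_GFP and 3.09 ± 0.92 in CKO_GFP (SD, n = 3), with overlap (difference -0.12, SE 0.56, exact two-sided permutation p = 0.9). CKO_GFP replicate 1, at 4.15, was above every control, and replicates 2 and 3, at 2.48 and 2.65, were below every control. Without replicate 1 the difference was -0.65 and the groups did not overlap, so the value rests on that library. With wild-type NAT10 it was 4.28 ± 0.475, above every control (difference 1.07, SE 0.32, exact permutation p = 0.1, adjusted p = 0.2). With G641E it was 3.52 ± 0.386 and overlapped the controls, and with K209A it was 1.73 ± 0.973, below them, though there it rests on few reads.

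Over the 15 libraries the levels of Kcnip2 and Kcnd2 had a Pearson r of 0.94 on the log2 scale, and 0.43 for the deviations from the group means. Kcnd2 with Kcnd3 gave 0.83 and -0.04, and Kcnip2 with Kcna4 0.66 and 0.46. These describe libraries that share the groups, and each r was lower within groups. The genes with the pattern most like that of Kcnip2, of 10277 ranked, were Hrc (r = 0.991, 0.86 within groups), which encodes a histidine-rich calcium-binding protein of the sarcoplasmic reticulum, then Fbxl22, Laptm4b, Acads, Dhrs7c and Fsd2. Mean Hrc was 252 FPKM in controls, 175 in CKO_G641E, 156 in CKO_NAT10, 15.2 in CKO_GFP and 4.40 in CKO_K209A. For Kcnd2 they were Pla2g5 (r = 0.989), Rbfox1, a splicing factor gene, Art1, Slc36a2, Fh1 and Rpa1. Kcnd3 was followed most closely by Dirc2 (r = 0.978), Nadk2, Lpcat3, Fbxo21, Dip2c and Gsg1l. Kcna4 stood with Slc25a23 (r = 0.912), Alpk3, Ehbp1l1, Vasp, C1qtnf9 and Plec. Kcnd2 took rank 419 for Kcnip2 and Kcnip2 rank 330 for Kcnd2.

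Among genes of known partners of these channels some were higher and some lower in the knockout. Of 21 listed genes of accessory subunits, anchoring and modifying proteins, 14 were tested, and in CKO_GFP against ff_GFP 3 rose, 2 fell and 9 were not called. Of all genes tested 19.8% rose and 20.8% fell, so these shares are near the background. Their median log2 difference was 0.16 against about 0 over all genes. Kcne4, a single-pass subunit gene, rose from 1.28 ± 0.102 to 3.88 ± 1.41 FPKM (log2 1.26, SE 0.19, limma adjusted p = 0.000146), and Kcnip3, a close relative of Kcnip2, from 0.553 to 1.12 FPKM (0.59, adjusted p = 0.0272). Kcne1, a subunit of the slow delayed rectifier, fell from 31.9 ± 1.41 to 10.9 ± 6.22 FPKM (-1.63, adjusted p = 0.000178). Kcnab3, the other of the 2 counted as lower, went from 0.492 to 0.147 FPKM (-0.63). It passed the filter of 0.5 FPKM only through groups where it was higher than in CKO_GFP, so its fall is a description. Camk2d (0.14), Flna (0.19) and Kcnd1, the third pore gene of the family (0.26, adjusted p = 0.289), were not called. Dpp6, Dpp10 and Kcne2, which encode partners of the fast channel, were under the filter. Kcne1 was higher with wild-type NAT10 (30.2 ± 4.06 FPKM, log2 1.54, adjusted p = 0.000517) and with G641E (31.4 ± 2.03 FPKM, 1.61, adjusted p = 0.00036) than in CKO_GFP. Kcne4 was lower than in CKO_GFP with wild-type NAT10 (-0.88, adjusted p = 0.0035) and with G641E (-1.16, adjusted p = 0.000493). In K209A against ff_GFP 8 of the 14 rose and 2 fell, Kcnab3 among the latter, beside 23.2% and 24.5% of all genes. The list was chosen with earlier results of these data known, so these shares are a description.

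Of 24 listed regulators linked to these genes, 22 were tested. In CKO_GFP against ff_GFP 11 fell, 1 rose and 10 were not called, beside 20.8% of all genes lower and 19.8% higher. Their median log2 difference was -0.44, against about 0 over all genes. The list was chosen with earlier results of these data known, so its shares are a description and no test of an excess. Nr3c2, the mineralocorticoid receptor, fell from 2.37 ± 0.419 to 0.416 ± 0.178 FPKM (log2 -1.65, SE 0.16, limma adjusted p = 4.21e-06). The thyroid hormone receptor genes Thrb and Thra, whose ligand raises the fast current in rodent heart, fell by 1.10 (adjusted p = 0.00143) and by 0.52 (adjusted p = 0.00214). Tbx5, a factor of heart development, fell by 1.13 (adjusted p = 0.0014), Zfpm2, a cofactor of GATA factors, by 0.62 (adjusted p = 0.000715) and Mef2c by 0.34 (adjusted p = 0.00272). Of the Iroquois genes, Irx1 fell by 1.10 (adjusted p = 0.00263) and Irx4 by 0.75 (adjusted p = 0.00364). Irx5, which in mouse represses Kcnd2 toward the inner wall of the ventricle, measured 7.16 ± 3.23 FPKM in ff_GFP and 5.84 ± 1.41 in CKO_GFP (-0.22, adjusted p = 0.551). Klf15, which in mouse drives Kcnip2 with the daily rhythm, measured 7.57 ± 0.86 and 10.8 ± 6.67 FPKM (0.23, SE 0.40, adjusted p = 0.674), and Nfatc3 differed by -0.11 (adjusted p = 0.465). With wild-type NAT10 against CKO_GFP 7 of the 22 rose and 1 fell, beside 15.1% and 16.1% of all genes, and Nr3c2 rose by 1.04 (adjusted p = 0.000376).

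Of 36 other genes of voltage-gated potassium channel pores, 8 were tested, with a median log2 difference of -0.44 in the knockout. Of these 6 fell, 1 rose and 1 was not called, again beside 20.8% of all genes lower and 19.8% higher. This list too was chosen with earlier results known, so its shares are a description. Kcnh2, the pore of the rapid delayed rectifier, fell from 43.6 ± 6.20 to 8.46 ± 2.25 FPKM (log2 -2.32, SE 0.16, limma adjusted p = 3.34e-07). It was higher with wild-type NAT10 than in CKO_GFP, by 1.70. Kcna7 (-0.84), Kcnq1 (-0.45) and Kcng2 (-0.42) also fell, and Kcna5, at 13.2 and 11.2 FPKM, was not called (-0.26, adjusted p = 0.215). Kcnq5 rose from 0.189 to 1.01 FPKM (1.14). In ff_GFP it was under the filter, which favoured the groups where it was high, so its rise is a description. Of the 8 genes that mark layers of the ventricular wall, where the fast current is graded, 5 were tested, and Irx3 alone fell (-0.95, adjusted p = 0.00443), while the other 4, Hey2, Gja5 and Mycn among them, were not called.

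**Figure D4:**
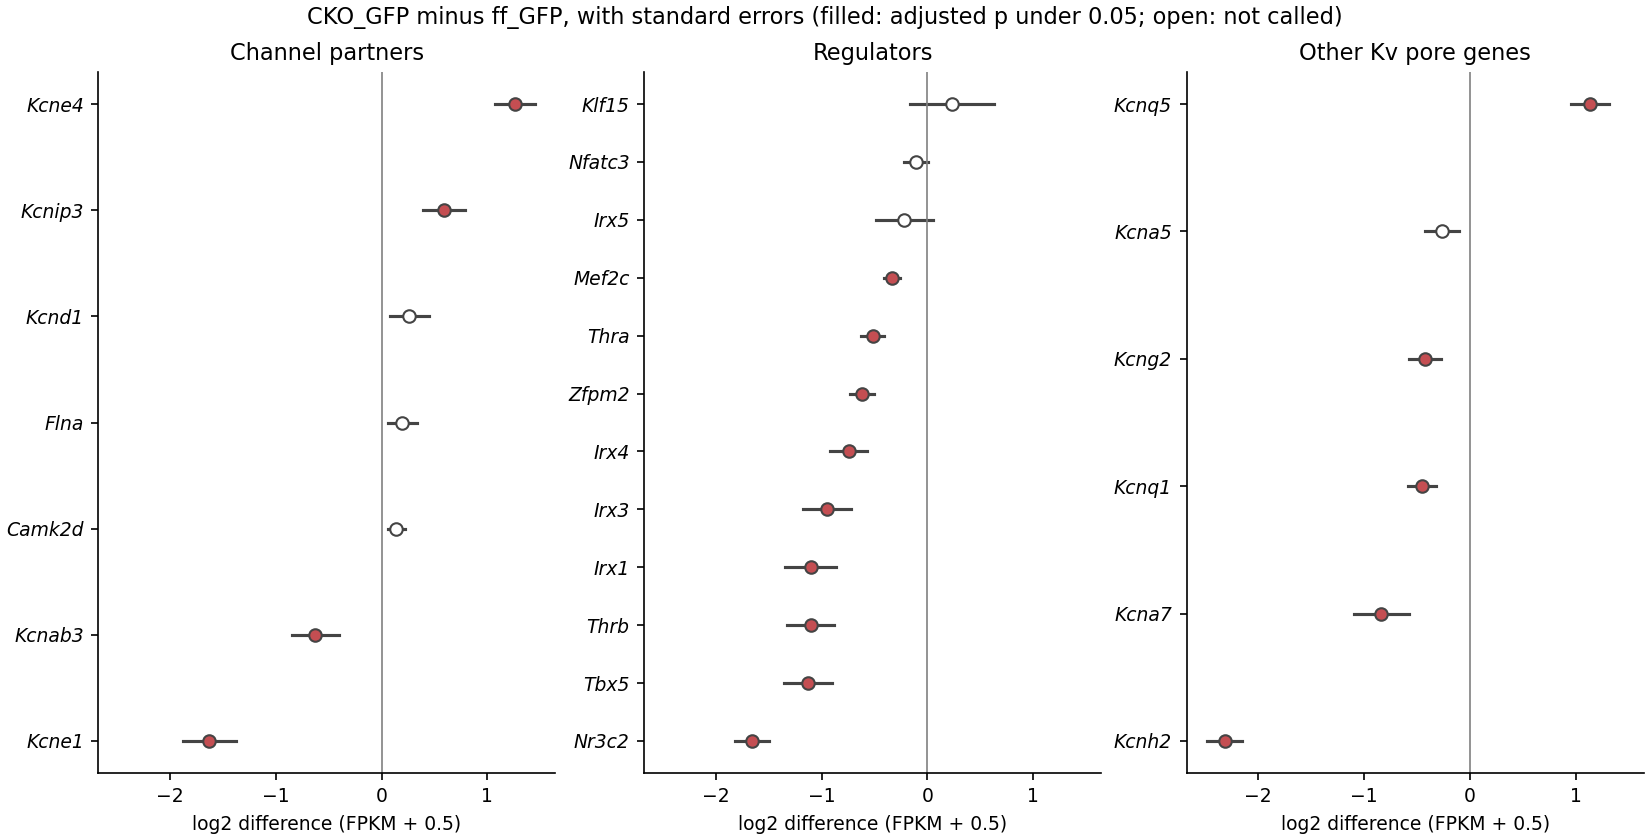
Log2 differences of FPKM + 0.5 in CKO_GFP minus ff_GFP (points) with standard errors (lines) for the channel partners, regulators and other voltage-gated potassium channel pore genes named in the text, filled where the adjusted p was under 0.05. Kcne4 (1.26) and Kcne1 (-1.63) mark the ends of the partners shown, and Kcnh2 (-2.32) is the lowest point of all.

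Whole heart was sampled, so fewer heart muscle cells and less RNA per cell cannot be told apart. The summed heart muscle markers were 2.06-fold higher in ff_GFP than in CKO_GFP and 2.68-fold higher than in CKO_K209A, as ratios of group means, and 7 of the 8 markers fell in CKO_GFP. Set against that sum, in a ratio added after the values were seen, Kcnip2 was 4.42 ± 1.02 per 1000 marker FPKM in ff_GFP, 5.42 ± 1.01 in CKO_NAT10, 3.81 ± 0.277 in CKO_G641E, 0.487 ± 0.376 in CKO_GFP and 0.122 ± 0.0697 in CKO_K209A. Kcnd2 was 0.393 ± 0.0521 per 1000 marker FPKM in ff_GFP and 0.0204 ± 0.0182 in CKO_GFP, and Kcnd3 0.0747 ± 0.0123 and 0.0238 ± 0.0251. Kcnip2 and Kcnd2 were lower in every CKO_GFP library than in any control per unit of the markers, and without CKO_GFP replicate 1 their means there were 0.281 and 0.00996. Kcnd3 was too, but as it passed the filter through ff_GFP alone its value is a description. Kcna4 was 0.122 ± 0.00855 in ff_GFP, 0.179 ± 0.0856 in CKO_GFP and 0.188 ± 0.0296 in CKO_K209A on that scale, so its group means were higher there than in ff_GFP and lower in FPKM, with overlapping libraries in CKO_GFP and none in CKO_K209A. The rise depends on the markers summed, since Myh6 held 6105 of the 10582 FPKM in ff_GFP, as group means. From ff_GFP to CKO_K209A, Ttn (29.8 to 25.6 FPKM) and Ryr2 (44.9 to 36.9) fell less in proportion than Kcna4, while Myh6 fell more (to 2143). Fibroblast markers summed to 347 to 392 FPKM in ff_GFP and 517 to 725 in CKO_GFP, with 4 of 6 called higher. Macrophage markers summed to 45.2 to 54.8 FPKM in ff_GFP and 62.1 to 107 in CKO_GFP, with 2 of 5 higher. Endothelial markers moved in the direction of the channel genes, from 283 to 296 FPKM in ff_GFP to 203 to 249 in CKO_GFP, with 4 of 5 lower, and 4 of 5 were higher than in CKO_GFP with wild-type NAT10 or G641E. Of 5 smooth muscle and pericyte markers 1 rose and 1 fell, and of 3 tested conduction system markers 2 fell. Of the 8 neuron and Schwann cell markers 4 were tested and 3 rose, with a sum of 2.41 to 3.92 FPKM in ff_GFP and 5.96 to 9.45 in CKO_GFP, while Th and Snap25 stayed under 0.1 FPKM throughout. Atrial muscle markers summed to 10.2 to 11.7 FPKM in ff_GFP and 26.9 to 32.3 in CKO_GFP, with 1 of 4 tested genes higher and 1 lower. The higher gene, Dkk3, held most of the CKO_GFP sum (3.87 to 25.2 FPKM, as group means). Stard10 fell (6.23 to 2.27), and Myl7 and Myl4, at low levels, were not called. The part of these cell types in the levels of the 4 genes was not tested.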

How the data were processed

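Whole-heart poly-A libraries gave paired 150-base reads from an Illumina NovaSeq, per the labels' protocols. HISAT2 2.0.5 aligned the reads to GRCm38/mm10 and featureCounts 1.5.0-p3 counted them, per the labels' design text, and CASAVA and DESeq2 1.20.0 are listed without a role, per the submitters' processing notes. The authors deposited FPKM for 54532 genes, beside gene lengths, per the file headers. How the FPKM were scaled is not given in the sources used here. FPKM times length gave whole reads for 100% of values above 0, within 0.05 reads. The library sizes behind them differed from the reads in genes by factors of 0.908 to 1.13. Mitochondrially encoded genes held 12.2% to 19.2% of reads.

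Tests used limma 3.58.1 in R 4.3.3 on log2(FPKM + 0.5). A gene was tested if 3 or more of the 15 libraries reached 0.5 FPKM, which held for 15321. The 5 groups entered 1 model with a trend of variance on level, and calls were made at a Benjamini-Hochberg adjusted p under 0.05 over all tested genes in each of 10 comparisons. The procedure was tested on simulated data. Intervals are 95%, and those of reads cover counting error only. Ratios between genes used a pseudocount of 0.01 FPKM and exact permutation tests. The libraries are labelled independent biological replicates, so p-values cover the spread between animals and preparations. Replicate numbers were not taken to pair the samples, since in every comparison at least 1 same-numbered pair had an r of deviations under 0.1.

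All 4 genes passed the filter, Kcnip2 in 13 libraries, Kcnd2 in 9, Kcnd3 in 3 and Kcna4 in 15. Of each list, up to 8 tested genes with the smallest adjusted p in CKO_GFP minus ff_GFP are named, with a few known partners. The genes most like each member are the 6 protein-coding genes of at least 1 FPKM with the highest Pearson r. The members and lists were chosen with earlier results of these data known. Some genes of these lists are counted but are not reported here by name.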

Additional observations from a re-analysis of the deposited data

How the results depend on the processing

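Of 630 results for the 4 genes under alternatives, 584 kept their direction and their side of the threshold, 17 lost a call, 19 gained one and 10 changed sign. No called value changed sign. The Kcnip2 and Kcnd2 calls in CKO_GFP against ff_GFP, in CKO_NAT10 and CKO_G641E against CKO_GFP, and in CKO_K209A against those groups other than CKO_GFP held in all 16 alternatives. Most other changes lie near the threshold or near 0, and the cause of each was not tested. Kcnd3 gave no value under a filter of at least 1 FPKM in 3 libraries, which it does not reach. Depth limits Kcnd2 and Kcnd3 in CKO_GFP and CKO_K209A, where 1 to 38 reads stand behind a value.

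For Kcnip2 in CKO_K209A minus CKO_GFP, the call was lost in 11 of 16 alternatives, among them a pseudocount of 1 (-1.12) and limma voom on recovered reads (-2.29), and at an unchanged -1.45 without a filter, with only the 2 groups compared, without a variance trend and with the replicate number as a block. Leaving out 1 library gave -1.97 to -0.90. The numbers were not taken to pair the samples, since in every comparison at least 1 same-numbered pair had an r of deviations from the group means under 0.1. The pairs of CKO_G641E and CKO_NAT10 came nearest, at 0.0883 to 0.364. Such values cannot settle whether same-numbered samples shared a batch. With the replicate block, Kcna4 was called in CKO_G641E minus CKO_GFP (0.60) and in CKO_K209A minus ff_GFP (-0.54), the latter also with only the 2 groups compared (-0.54), and no other call but that of Kcnip2 changed.

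Kcnd3 gained calls at low levels. In CKO_K209A minus CKO_NAT10 it was called with a pseudocount of 0.1 (-1.11), without a filter (-0.47), without a variance trend (-0.47) and by voom (-1.72). Without a variance trend it was also called in CKO_NAT10 and CKO_G641E minus CKO_GFP (0.44 and 0.41), in both minus ff_GFP (-0.62 and -0.65), where it had to differ by the filter, and in CKO_K209A minus CKO_G641E (-0.44). By voom these rises over CKO_GFP were 1.94 and 1.87, the last difference -1.65, and CKO_K209A minus CKO_GFP turned to 0.22. Kcna4 in CKO_K209A minus CKO_G641E lost its call without a filter (-0.76) and without scaling beyond the reads in genes (-0.66), where Kcnip2 in CKO_NAT10 minus ff_GFP turned to 0.0522. The log2 ratio of Kcnip2 to Kcnd2 plus Kcnd3 in CKO_GFP minus ff_GFP turned to 0.00757 without a pseudocount.

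Leaving out 1 library moved Kcna4 between -0.66 and -0.19 in CKO_GFP minus ff_GFP, -0.34 and 0.0357 in CKO_NAT10 minus ff_GFP, 0.42 and 0.88 in CKO_G641E minus CKO_GFP, -0.34 and 0.12 in CKO_K209A minus CKO_GFP, and -0.95 and -0.67 in CKO_K209A minus CKO_G641E. It moved Kcnip2 between -0.23 and 0.11 in CKO_NAT10 minus ff_GFP and Kcnd2 between -0.0366 and 0.56 in CKO_G641E minus CKO_NAT10. Kcnd3 ranged from 0.34 to 0.60 and from 0.31 to 0.57 in CKO_NAT10 and CKO_G641E minus CKO_GFP, from -0.13 to 0.13 in CKO_K209A minus CKO_GFP and from -0.12 to 0.0738 in CKO_G641E minus CKO_NAT10. With only the 2 groups compared, the genes called numbered 2355 in place of 4776 for CKO_NAT10 minus CKO_GFP, 2703 in place of 4793 for CKO_G641E, 9 in place of 1215 for CKO_K209A, 0 in place of 8 for CKO_G641E minus CKO_NAT10 and 207 in place of 378 for CKO_NAT10 minus ff_GFP. Without 1 library the count for CKO_K209A minus CKO_GFP was 427 to 1650, lowest without CKO_K209A replicate 1.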
